A study of Mus musculus with 6 samples.

Results

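The genes described here encode the voltage-gated sodium channels of sensory neurons. They comprise the alpha subunits Scn1a, Scn2a, Scn3a, Scn8a, Scn9a, Scn10a and Scn11a and the beta subunits Scn2b and Scn3b, chosen by symbol, which makes 9 of the 35976 genes listed for each culture and 9 of the 18277 that had enough counts to be tested. An alpha subunit forms the pore through which sodium enters the cell and starts the action potential. Beta subunits are small membrane proteins that bind the alpha subunit and change its gating and its amount at the cell surface. In sensory neurons, channels are divided further by whether the toxin tetrodotoxin (TTX) blocks them, and the TTX-resistant channels Nav1.8 (Scn10a) and Nav1.9 (Scn11a) belong mainly to nociceptors, the neurons that report painful stimuli.

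RNA was sequenced from 6 cultures of dorsal root ganglion (DRG) neurons of wildtype C57BL/6 mice, adult animals of either sex, with ganglia taken from all lumbar levels, in medium with serum and GDNF among its additions. Plating lasted 24 h and was followed by another 24 h with vehicle (3 cultures) or with 15 µg/mL HC-HA/PTX3 (3 cultures), a complex of heavy chain, hyaluronan and pentraxin 3 purified from human amniotic membrane. The comparison asks whether prolonged exposure to this matrix changes the RNA of the neurons. The labels number the cultures 1 to 3 in each group but do not say whether these came from separate animals, so p-values measure only the spread between these cultures. The replicate number stands in for the batch, which the labels do not name, and treated cultures were set against vehicle cultures of the same number, because such pairs deviated together. The vehicle libraries held 42516054, 42617496 and 54117547 counts and the HC-HA/PTX3 libraries 37998071, 37434266 and 38420247 counts, in order of replicate number. Levels are given as CPM, the library-scaled count after TMM scaling, and levels of different genes are compared as CPM per kilobase (kb) of exon. In every list of 6 values, vehicle replicates 1 to 3 come before HC-HA/PTX3 replicates 1 to 3.

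The label of the cultures was checked against marker genes. The 10 pan-neuronal genes, of which Tubb3 had the highest mean level per kb, summed to 6700, 5697 and 6405 CPM with vehicle and to 6945, 6214 and 7157 CPM with HC-HA/PTX3, and no gene of the list was at 0 in any culture. Their sum was higher in the treated culture of all 3 pairs, but the genes differed in direction. The log2 fold change with treatment was positive for 7 of the 10 and negative for 3, Elavl4 (-0.28), Map2 (-0.09) and Rbfox3 (-0.03). Elavl4 and Map2 were lower in all 3 pairs. RNA of other cells was present as well. The 6 fibroblast genes, led by Col1a1 in mean level per kb (as for each list here), summed to 2138, 2152 and 895 CPM with vehicle and 1151, 1382 and 303 CPM with HC-HA/PTX3. The 6 Schwann cell genes, led by Pmp22, summed to 1633, 1169 and 718 CPM and then 1524, 1052 and 675 CPM, and the 6 satellite glia genes, led by Apoe, to 1542, 796 and 395 CPM and then 1389, 879 and 421 CPM. Glial RNA was thus lowest in replicate 3 of each group, and the fibroblast and Schwann cell sums were lower in the treated culture of all 3 pairs. Macrophage genes (6, led by Lyz2) summed to no more than 89.8 CPM in any culture and endothelial genes (5, led by Cdh5) to no more than 276 CPM. In bulk RNA, fewer cells of a type and less RNA per cell cannot be told apart. The part of these other cells in the sodium channel results was not tested.

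Transcripts of the TTX-resistant channels and of Nav1.7 made up most of the sodium channel RNA. Scn10a, encoding Nav1.8, the channel that carries most of the current of the nociceptor action potential upstroke, stood at 93.7, 106 and 108 CPM per kb with vehicle and 90.2, 96.8 and 118 CPM per kb with HC-HA/PTX3. Its group means were 102 ± 7.60 and 101 ± 14.2 CPM per kb (SD, n = 3 each). Scn9a encodes Nav1.7, a TTX-sensitive channel that amplifies small depolarizations and whose loss in humans abolishes pain. It was measured at 53.4, 45.4 and 43.8 CPM per kb with vehicle and 55.3, 45.2 and 52.0 CPM per kb with HC-HA/PTX3, with means of 47.5 ± 5.12 and 50.8 ± 5.11 CPM per kb (SD, n = 3 each). Scn11a, encoding the persistent channel Nav1.9, stood at 43.4, 40.1 and 37.6 CPM per kb with vehicle and 44.2, 39.1 and 43.1 CPM per kb with HC-HA/PTX3. The groups overlapped for each of these 3 genes.

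The remaining alpha subunits were far less abundant. Scn8a encodes Nav1.6, the main channel of nodes of Ranvier, and was measured at 9.71, 6.83 and 8.32 CPM per kb with vehicle and 8.56, 5.26 and 7.71 CPM per kb with HC-HA/PTX3. Scn1a encodes Nav1.1, which in ganglia belongs mostly to larger neurons with myelinated axons. It stood at 4.98, 2.54 and 4.45 CPM per kb with vehicle and 5.04, 2.35 and 4.42 CPM per kb with HC-HA/PTX3, so that replicate 2 was the low culture in each group. Scn2a, encoding Nav1.2, a channel mainly of central neurons, was at 1.88, 2.04 and 1.98 CPM per kb and then 1.43, 1.70 and 2.16 CPM per kb. Scn3a encodes Nav1.3, which is embryonic and can return in injured sensory neurons, and had the lowest level of the 9 genes in each culture, from 0.675 to 0.952 CPM per kb.

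Of the beta subunits, Scn3b, whose product binds alpha subunits without a covalent bond, stood at 10.6, 10.3 and 8.27 CPM per kb with vehicle and 10.9, 10.0 and 9.73 CPM per kb with HC-HA/PTX3. Scn2b encodes the beta2 subunit, which is joined to the alpha subunit by a disulfide bond and is known to raise the amount of TTX-sensitive channels at the surface of sensory neurons. Its level was 6.56, 4.85 and 7.73 CPM per kb with vehicle and 4.35, 2.90 and 5.70 CPM per kb with HC-HA/PTX3. In the vehicle cultures the order from high to low was Scn10a, Scn9a, Scn11a, Scn3b, Scn8a, Scn2b, Scn1a, Scn2a and Scn3a. The vehicle ranges of Scn3b and Scn8a, of Scn8a and Scn2b, and of Scn2b and Scn1a overlapped. Within each vehicle culture, though, Scn8a was above Scn2b and Scn2b above Scn1a, so that only Scn3b and Scn8a, which changed places in vehicle replicate 3, did not differ beyond their spread. The ranges of the other neighbours did not overlap, although Scn9a (lowest 43.8 CPM per kb) and Scn11a (highest 43.4 CPM per kb) nearly met. Dividing by the longest transcript in place of the exon union gave the same order.

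**Figure D1:**
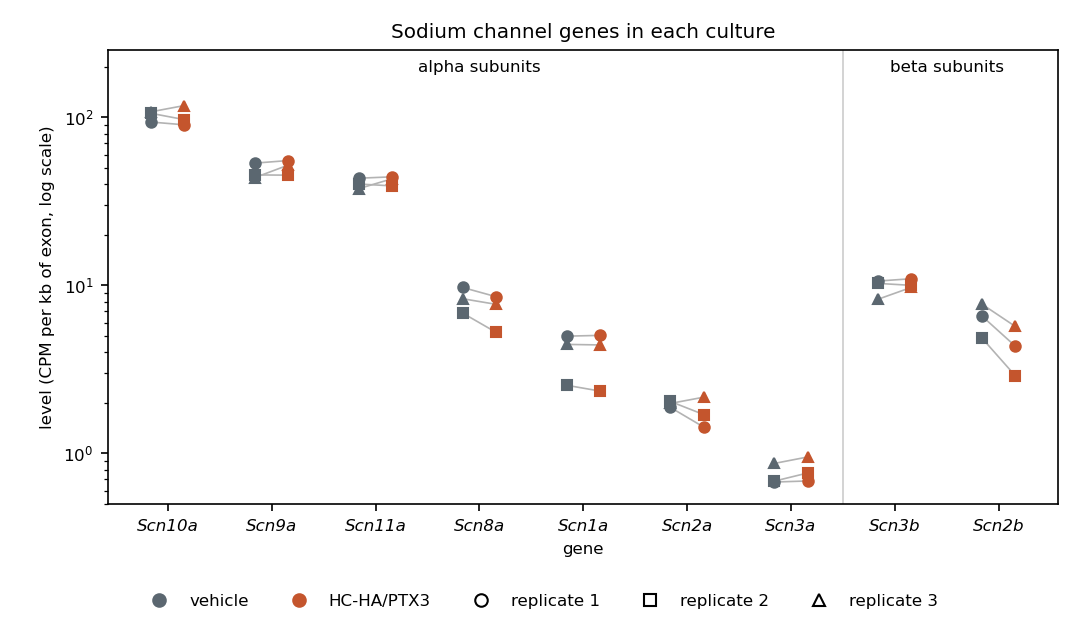
Level of each of the 9 genes in CPM per kb of exon (vertical axis, log scale), with 1 point per culture, grey for vehicle and orange for HC-HA/PTX3, and lines joining same-numbered cultures. Scn10a lies near 102 CPM per kb and Scn3a between 0.675 and 0.952 CPM per kb, and the lines of Scn2b and Scn8a descend in all 3 pairs.

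The balance of TTX-resistant and TTX-sensitive alpha subunit RNA differed less between the groups than between the cultures of a group. Scn10a and Scn11a together, the TTX-resistant share, held 66.0%, 71.7% and 71.0% of the summed per-kb level of the 7 alpha genes with vehicle and 65.4%, 71.1% and 70.5% with HC-HA/PTX3. Replicate 1 was the low culture in each group, and the groups overlapped. The mean share was 69.6 ± 3.10% against 69.0 ± 3.10% (SD, n = 3 each), a difference of -0.56 percentage points (two-sided exact permutation test, p = 0.6, where 3 cultures against 3 cannot give less than 0.1). That test takes the cultures without their numbers, so its p-value reflects the spread between replicates and does not bear on the pairs. Between cultures of the same number the share was lower after treatment in all 3 pairs, with differences of -0.56, -0.62 and -0.50 points. Scn9a, the main TTX-sensitive gene, held 25.7%, 22.4% and 21.4% with vehicle and 26.9%, 23.7% and 22.8% with HC-HA/PTX3, with overlapping groups and more in the treated culture of each pair, by 1.21, 1.31 and 1.43 points. Scn10a held less in each treated culture than in the vehicle culture of its number, with differences of -1.20, -1.33 and -1.05 points. Scn11a, the other TTX-resistant gene, held more in each, by 0.64, 0.71 and 0.55 points, and Scn8a less, with differences of -0.51, -0.61 and -0.68 points. These pair differences were not tested. The ratio of Scn9a to Scn10a per kb ranged from 0.406 to 0.613 and was highest in replicate 1 of each group. The summed level of the 7 alpha genes was 208, 203 and 205 CPM per kb with vehicle and 205, 191 and 228 CPM per kb with HC-HA/PTX3, so that treated replicate 1 lay within the vehicle range, replicate 2 under it and replicate 3 above it (exact permutation test, p = 0.8).

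**Figure D2:**
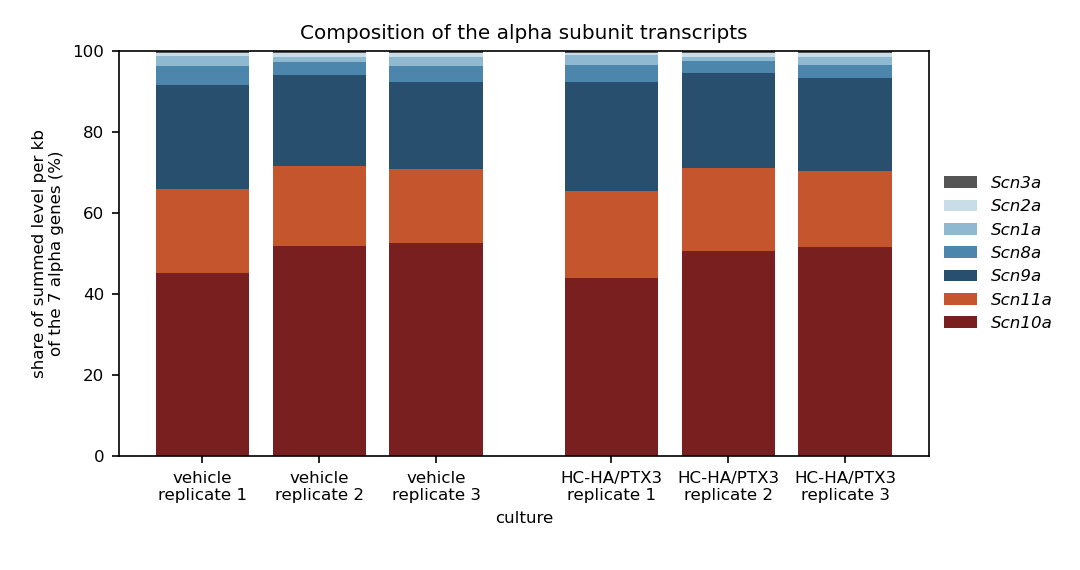
Share of each alpha gene in the summed CPM per kb of the 7 alpha genes (vertical axis, %), with 1 stacked bar per culture, the TTX-resistant genes Scn10a and Scn11a at the bottom in red and orange and the TTX-sensitive genes above. The TTX-resistant share is lowest in replicate 1 of each group, at 66.0% and 65.4%.

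Scn2b was lower after HC-HA/PTX3 and was the 1 sodium channel gene of the 9 to pass both thresholds. A gene was called where its adjusted p-value was under 0.05 and its log2 fold change exceeded 0.5 in either direction. By this rule 1 of the 9 genes was called, and it was lower, where 8.7% of all tested genes were called in either direction and 5.38% were called lower. Without a threshold on the fold change, 2 of the 9 genes passed, Scn2b and Scn8a, and these were lower, against 19.2% of all tested genes in either direction, 11.5% lower and 7.67% higher. The median log2 fold change of the 9 genes was -0.02, with 4 positive and 5 negative, beside -0.01 over all tested genes. The treated culture was lower in all 3 pairs for 2 of the 9 genes, again Scn2b and Scn8a, beside 28.7% of all tested genes. Levels in the 3 treated cultures overlapped those in the 3 vehicle cultures for each of the 9 genes, whereas 18% of all tested genes had groups that did not overlap. A count of 1 in 9 lies near the background share, so it is not a result about the family as a whole.

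The calls depended on the replicate block, which sets each treated culture against the vehicle culture of the same number. With treatment as the only term, edgeR's quasi-likelihood test called 0 of the 9 genes and 0 of the 18277 tested genes (0%), and an unadjusted p-value under 0.05 was reached by 0 of the 9 and by 2089 of all tested genes. With the replicate number kept as block or batch, DESeq2, limma-voom and ComBat-seq followed by limma each called 1 of the 9 genes, Scn2b.

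**Figure D3:**
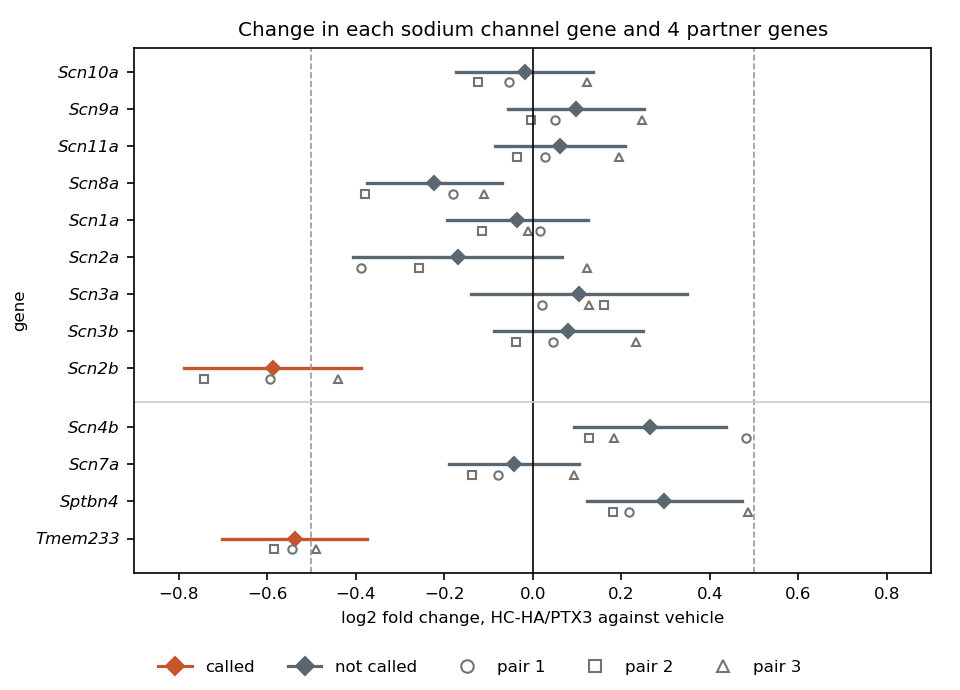
Log2 fold change of HC-HA/PTX3 against vehicle (horizontal axis) for the 9 genes and, under the line, 4 partner genes, as diamonds with 95% confidence intervals from the fit with the replicate block. Open symbols give the difference within each same-numbered pair, dashed lines mark the threshold of 0.5 on either side, and the 2 genes in orange, Scn2b at -0.59 and Tmem233 at -0.54, were called.

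Scn2b was measured at 30.6, 22.6 and 36.0 CPM in vehicle replicates 1, 2 and 3 and at 20.3, 13.5 and 26.5 CPM in the HC-HA/PTX3 replicates. Every treated culture was lower than the vehicle culture of its number, but HC-HA/PTX3 replicate 3 lay above vehicle replicate 2, so the groups overlapped. The log2 fold change was -0.59 (SE 0.09, 95% interval -0.79 to -0.39), a change of -33.4%, with an adjusted p-value of 0.00229 (edgeR's quasi-likelihood test, Benjamini-Hochberg adjusted). Within pairs 1, 2 and 3 the log2 difference was -0.59, -0.74 and -0.44. The replicate number, which has more levels than the treatment, held 55.7% of the variance of its log2 level and the treatment 42.4%. Without the block the log2 fold change was -0.56 and the adjusted p-value 0.493 (the same edgeR quasi-likelihood test, Benjamini-Hochberg adjusted). The alternatives that kept the replicate number, DESeq2, limma-voom and ComBat-seq with limma among them, gave Benjamini-Hochberg adjusted p-values from 4.78e-07 to 0.0240 in these tools and edgeR's quasi-likelihood test. Scaled to the 10 pan-neuronal genes in place of TMM, the log2 fold change was -0.65.

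The next sodium channel gene on the chromosome had a fold change of the opposite sign. Scn4b, which encodes the beta4 subunit, also disulfide-bonded and known for its part in resurgent sodium current, lies downstream of Scn2b on the same strand of chromosome 9 (Scn2b from 45117782 to 45130070, Scn4b from 45138395 to 45154152, plus strand, mm10 in GENCODE M21). Its level was 87.4, 53.3 and 120 CPM with vehicle and 122, 58.1 and 136 CPM with HC-HA/PTX3. Replicate 2 was low in each group, the treated culture was higher in all 3 pairs, and the groups overlapped. The log2 fold change was 0.26 (SE 0.08) with an adjusted p-value of 0.0382 (edgeR's quasi-likelihood test, Benjamini-Hochberg adjusted), under the fold threshold, so that Scn4b was not called. Its adjusted p-value ran from 0.0137 with all genes of at least 1 count to 0.849 without the block (edgeR's quasi-likelihood test, Benjamini-Hochberg adjusted). With a culture left out it ran from 0.0414 to 0.199 in the same test (Benjamini-Hochberg adjusted) and was over 0.05 in 5 of the 6 cases, and the log2 fold change fell to 0.158 without replicate 1 of either group.

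The share of Scn2b in the beta subunit RNA and its ratio to Scn4b describe these 2 differences together. Both were chosen after the values of the genes had been seen, so they are given without a test. Of the summed CPM per kb of Scn2b, Scn3b and Scn4b, Scn2b held 18.9%, 18.8% and 19.3% with vehicle and 10.9%, 11.8% and 13.3% with HC-HA/PTX3. The vehicle cultures lay within a narrow band, and all 3 treated cultures lay under it. The mean share was 19.0 ± 0.243% against 12.0 ± 1.21% (SD, n = 3 each), a difference of -6.98 percentage points. The log2 ratio of Scn2b to Scn4b per kb was -1.42, -1.14 and -1.64 with vehicle and -2.49, -2.01 and -2.26 with HC-HA/PTX3. The mean difference was -0.86. Scn3b itself, at 57.9, 56.1 and 45.2 CPM and then 59.8, 54.6 and 53.1 CPM, had a log2 fold change of 0.08 (SE 0.08).

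**Figure D4:**
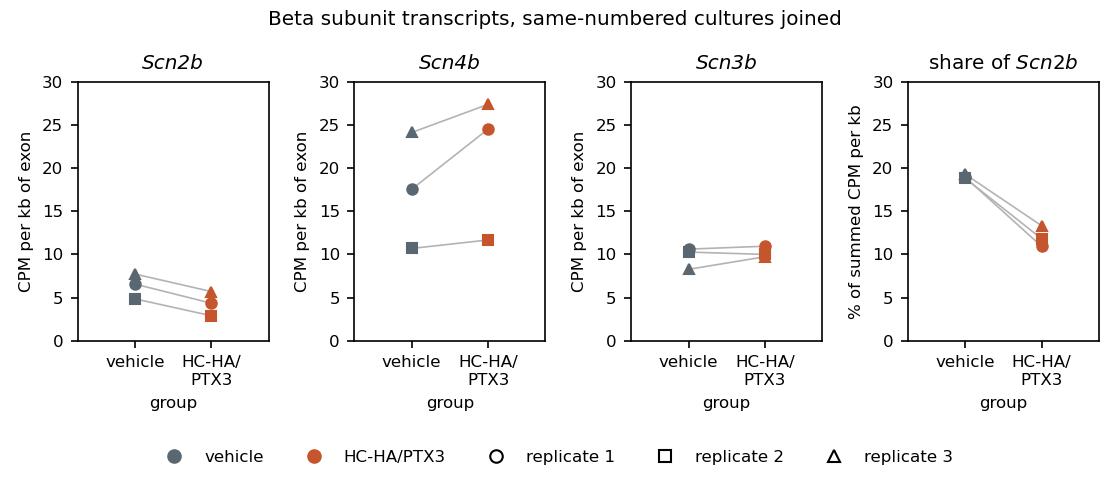
Levels of Scn2b, Scn4b and Scn3b in CPM per kb of exon and, at the right, the share of Scn2b in their sum (%), for vehicle (grey) and HC-HA/PTX3 (orange) cultures, with same-numbered cultures joined. Scn2b descends and Scn4b ascends in all 3 pairs, and the share lies between 18.8% and 19.3% with vehicle and between 10.9% and 13.3% with HC-HA/PTX3.

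The start regions of these neighbours are shown because their RNA differed in direction. The sequences are from RefSeq (GRCm38.p6), which gave such a window for 7 of the 9 genes and for Scn4b, and each runs from 250 bases before to 50 bases after the start of transcription. Capitals mark CpG sites (a C followed by a G), the sites at which vertebrate DNA is methylated. The window of Scn2b is chr9:45117626-45117925 and that of Scn4b chr9:45138374-45138673, plus strand for both. The GENCODE start of each gene lies inside its window but upstream of the RefSeq start, at 45117782 for Scn2b and 45138395 for Scn4b. By GENCODE, most of the Scn4b window is thus inside the gene.
Scn2b: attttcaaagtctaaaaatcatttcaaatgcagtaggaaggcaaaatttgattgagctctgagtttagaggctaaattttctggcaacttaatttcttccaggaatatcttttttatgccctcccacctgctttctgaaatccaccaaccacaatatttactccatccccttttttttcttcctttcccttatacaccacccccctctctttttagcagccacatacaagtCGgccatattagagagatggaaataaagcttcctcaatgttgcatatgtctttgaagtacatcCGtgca
Scn4b: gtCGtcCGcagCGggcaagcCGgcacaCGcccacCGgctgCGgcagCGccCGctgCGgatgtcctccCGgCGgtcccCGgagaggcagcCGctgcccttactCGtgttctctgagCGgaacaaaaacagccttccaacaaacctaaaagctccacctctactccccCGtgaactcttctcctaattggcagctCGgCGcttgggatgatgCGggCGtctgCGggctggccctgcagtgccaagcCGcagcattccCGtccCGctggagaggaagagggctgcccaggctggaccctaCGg
The Scn2b window held 2 CpG sites and 38.3% G and C bases. The Scn4b window held 26 CpG sites and 66.3% G and C bases, and the median over 32851 RefSeq windows was 7 sites and 52.7%. The neighbours thus lie on opposite sides of the typical window in base composition. Of the motifs searched on either strand, neither window holds TATAAA (the TATA box), whose letters are in 13.6% of all windows, or GGGCGG (the GC box), which is in 35.7%. Likewise absent are TGACGTCA (the cyclic AMP response element), found in 1.79% of all windows, and TGANTCA (the AP-1 motif), found in 7.81%. This says only that these letters are not in these windows.

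Among the alpha subunits, Scn8a came closest to a call. It was at 153, 108 and 131 CPM with vehicle and 135, 82.9 and 122 CPM with HC-HA/PTX3, lower in the treated culture of each pair and with overlapping groups. The log2 fold change was -0.22 (SE 0.07, 95% interval -0.38 to -0.07), or -14.3%, with an adjusted p-value of 0.0464 (edgeR's quasi-likelihood test, Benjamini-Hochberg adjusted). With a single culture left out, the adjusted p-value ran from 0.0566 to 0.282 (edgeR's quasi-likelihood test, Benjamini-Hochberg adjusted), and it was 0.771 without the block. The log2 fold change fell to -0.146 without replicate 2 of either group and ran from -0.279 to -0.240 in the other 4 cases. DESeq2 gave a Benjamini-Hochberg adjusted p-value of 0.0610, limma-voom 0.0487 and ComBat-seq with limma 0.0130. Upper-quartile scaling gave 0.0912 and pan-neuronal scaling 0.0276 in edgeR's quasi-likelihood test (Benjamini-Hochberg adjusted).

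The other alpha subunits did not pass the adjusted p-value (edgeR's quasi-likelihood test, Benjamini-Hochberg adjusted), with values from 0.297 (Scn2a) to 0.884 (Scn10a). Scn2a, at 23.9, 25.9 and 25.3 CPM with vehicle and 18.3, 21.7 and 27.5 CPM with HC-HA/PTX3, had a log2 fold change of -0.17 (SE 0.11), and its pairs differed in direction. With a culture left out its log2 fold change ran from -0.322 to -0.0622. Scn3a, at 8.42, 8.52 and 10.9 CPM and then 8.54, 9.52 and 11.9 CPM, had a log2 fold change of 0.10 (SE 0.11) and was slightly higher in the treated culture of each pair. The 3 abundant nociceptor genes had narrow intervals. Scn10a, at 746, 841 and 859 CPM with vehicle and 718, 771 and 936 CPM with HC-HA/PTX3, had a log2 fold change of -0.02 with a 95% interval of -0.17 to 0.14. Its sign changed to 0.01 with upper-quartile scaling. Scn9a, at 682, 580 and 560 CPM and then 706, 578 and 664 CPM, had a log2 fold change of 0.10 with an interval of -0.06 to 0.25. Scn11a, at 257, 238 and 223 CPM and then 262, 232 and 255 CPM, had a log2 fold change of 0.06 with an interval of -0.09 to 0.21. In pair 3 the treated culture was the higher for each of these 3 genes, by 0.12, 0.25 and 0.19 on the log2 scale, while pair 2 gave -0.12, -0.01 and -0.04. The 95% interval of each of the 3 genes lay inside the threshold of 0.5 on either side.

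For each of the 9 genes the replicate number held more of the variance of the log2 level than the treatment did. The replicate number has more levels than the treatment, and the shares are not corrected for this, so a larger share for it is partly built in. Scn1a was at 55.6, 28.4 and 49.6 CPM with vehicle and 56.2, 26.2 and 49.3 CPM with HC-HA/PTX3, and the replicate number held 99.5% of the variance of its log2 level and the treatment 0.162%. Replicate 2 lay under replicate 1 by a log2 difference of -0.97 with vehicle and -1.10 with HC-HA/PTX3. The log2 fold change of Scn1a with treatment was -0.03 (95% interval -0.19 to 0.12). Scn8a was lowest in replicate 2 of each group as well, with 80.3% of its variance held by the replicate number, and so were Scn2b, with 55.7%, and Scn4b, with 91.7%. Of the 6 marker genes of neurons with myelinated axons, Nefh, Nefm, Ntrk3 and Pvalb were lowest in replicate 2 of each group, whereas Ntrk2 was lowest in replicate 3 and Spp1 highest in replicate 2. The neurofilament gene Nefh was at 945, 467 and 585 CPM with vehicle and 839.5, 546 and 761 CPM with HC-HA/PTX3, and Pvalb, which marks proprioceptors, at 14.8, 6.10 and 10.1 CPM and then 18.5, 7.49 and 13.4 CPM. The 6 genes summed to 3263, 2388 and 2369 CPM and then 3182, 2527 and 2703 CPM, with Spp1 the most abundant per kb and none at 0. Their part in the levels of Scn1a, Scn8a, Scn2b and Scn4b was not tested.

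Markers of nociceptor classes, the neurons in which Scn10a, Scn9a and Scn11a are chiefly expressed, differed among themselves. The 4 peptidergic genes, led by Calca, summed to 717, 747 and 759 CPM with vehicle and 1012, 875 and 829 CPM with HC-HA/PTX3. By this sum the treated cultures were all higher, but Trpv1, 1 of the 4, had a log2 fold change of -0.03 and pairs of either direction. Tac1, the precursor of substance P, rose from 78.9, 59.8 and 56.2 CPM to 158, 126 and 107 CPM, a fitted fold change of 2.01. It was the 1 gene of the 4 that was called. The 4 nonpeptidergic genes, led by P2rx3, summed to 395, 360 and 537 CPM and then 420, 345 and 560 CPM. Mrgprd was called higher, with a log2 fold change of 0.62, while Gfra2 had a log2 fold change of -0.34 under the fold threshold. No gene of either list was at 0, and without the block neither Tac1 nor Mrgprd was called.

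**Figure D5:**
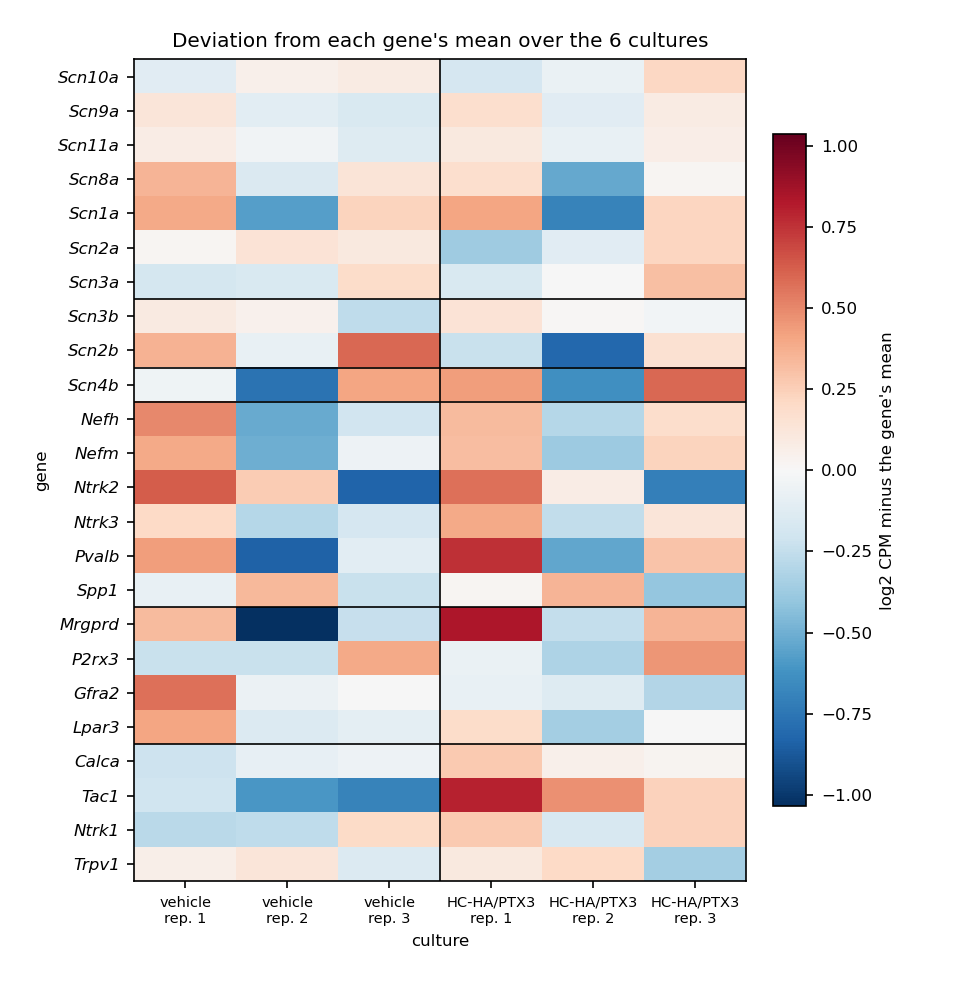
Log2 CPM of each gene in each culture minus the gene's mean over the 6 cultures (colour, red above and blue under the mean), for the 9 sodium channel genes, Scn4b and the markers of neurons with myelinated axons, of nonpeptidergic and of peptidergic nociceptors, in blocks from top to bottom. Scn1a and Scn4b are blue in replicate 2 of each group, and Scn2b is paler or bluer in each treated culture than in the vehicle culture of its number.

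The genes that work with the channels were examined next. Of 24 genes chosen for their known role, 1 was called, Tmem233, and it was lower, where 5.38% of all tested genes were called lower. Tmem233 encodes a membrane protein of sensory neurons known to interact with Nav1.7. It was measured at 52.6, 34.8 and 41.3 CPM with vehicle and 36.1, 23.2 and 29.4 CPM with HC-HA/PTX3. Every treated culture was lower than its vehicle partner, while HC-HA/PTX3 replicate 1 exceeded vehicle replicate 2, so the groups overlapped. The log2 fold change was -0.54 (SE 0.07, 95% interval -0.70 to -0.37), or -31.1%, with an adjusted p-value of 0.00145 (edgeR's quasi-likelihood test, Benjamini-Hochberg adjusted). The pairs gave -0.54, -0.58 and -0.49. Without the block the log2 fold change was again -0.54, with an adjusted p-value of 0.410 (edgeR's quasi-likelihood test, Benjamini-Hochberg adjusted).

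The partner genes fell into 4 groups. The 6 other sodium channel genes had a median log2 fold change of 0.26, with 4 positive and 2 negative. Among them Scn7a, encoding the sodium sensor Nax, was at 317, 209 and 189 CPM with vehicle and 300, 190 and 201 CPM with HC-HA/PTX3, and Nalcn, the sodium leak channel, had a log2 fold change of -0.21. The 4 fibroblast growth factor homologous factors, cytosolic proteins that bind the tail of the alpha subunit, had log2 fold changes from -0.19 to -0.12 (median -0.16), and none of them passed the adjusted p-value. Fgf13 was the most abundant of them per kb, at 56.1 ± 13.3 CPM per kb with vehicle and 49.5 ± 10.4 CPM per kb with HC-HA/PTX3 (SD, n = 3 each). The 6 genes that hold channels at the axon initial segment and nodes of Ranvier had a median of -0.05. Of these, Sptbn4, the spectrin of these sites, was at 51.3, 39.4 and 58.5 CPM and then 59.6, 44.6 and 82.0 CPM, higher in the treated culture of each pair, with a log2 fold change of 0.30 (SE 0.08) that was under the fold threshold. Ank3, the ankyrin that binds the alpha subunits there, had a log2 fold change of -0.10 (SE 0.07). The 8 genes of channel trafficking and turnover had a median of -0.09, from -0.54 (Tmem233) to 0.07 (S100a10, the annexin partner of Nav1.8). Without the threshold on the fold change, 4 of the 24 passed, 3 higher, Scn4b and Sptbn4 among them, and 1 lower, beside 19.2% of all tested genes (7.67% higher and 11.5% lower), so this count is near the background. Scaled to the pan-neuronal genes, Scn4b and Sptbn4 did not pass (0.162 and 0.0836, edgeR's quasi-likelihood test, Benjamini-Hochberg adjusted), and like Scn4b, Sptbn4 passed in 1 of the 6 cases with a culture left out. Groups did not overlap for 1 of the 24, Gpd1l, beside 18% of all tested genes.

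Some of the genes lie in clusters. Scn3a, Scn2a, Scn1a and Scn9a lie in that order on chromosome 2, from 65457118 to 66634962, and their log2 fold changes were 0.10, -0.17, -0.03 and 0.10. Scn10a and Scn11a lie side by side on the minus strand of chromosome 9, from 119608456 to 119825456, with log2 fold changes of -0.02 and 0.06. Scn3b is on the same chromosome, from 40269217 to 40291618, and Scn8a on chromosome 15, from 100869858 to 101045938 (mm10, GENCODE M21). The genes of the chromosome 2 cluster and the pair of Scn10a and Scn11a thus had estimates of either sign, none of them called. Scn2b, which was called, lies beside Scn4b on chromosome 9, as described above.

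The culture-to-culture pattern of the abundant alpha genes was compared with that of the 6271 tested genes that averaged 5 log2 CPM or more. Over the 6 cultures, the log2 levels most like those of Scn10a were of Ep300 (Pearson's r 0.983), Galnt14 (0.979) and Sel1l3 (0.972). Those most like Scn9a were of Zfp871 (0.994), Fnbp1 (0.987) and Mapt (0.981). For Scn11a they were of Cadps (0.992), Scn9a (0.979) and Mycbp2 (0.969), so that Scn9a and Scn11a, a TTX-sensitive and a TTX-resistant channel, followed each other across cultures. These values describe 6 cultures that share replicate numbers and were picked as the highest of many, and they carry no test. In the annotation, the antisense gene Gm13629 overlaps 180 bases of Scn9a exons, and without a stated strand setting reads of that stretch cannot be assigned. The exons of the other 8 genes overlap no exon of another annotated gene.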

How the data were processed

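Gene expression was measured by RNA-seq of ribosomal RNA-depleted libraries from 6 cultures. The authors removed ribosomal RNA reads, counted reads per gene of mm10 with featureCounts and deposited raw counts for each culture, whole numbers that were not normalized. The methods name HISAT2 as the aligner, whereas the file headers name STAR, and the strand setting is not given in the sources used here. Scn2a is listed under its older symbol Scn2a1.

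Counts were analysed in R 4.3.3 with edgeR 4.0.16 (filterByExpr, TMM scaling, glmQLFit and glmQLFTest with replicate number and treatment as terms, Benjamini-Hochberg adjustment over 18277 genes). The methods of the study use a batch term and the same thresholds, 0.05 for the adjusted p-value and 0.5 for the log2 fold change in either direction. The pairing by number was checked on the data: across genes, departures from the group mean correlated at 0.631, 0.536 and 0.774 between cultures of the same number and at -0.613 to 0.148 between the others. Libraries of a group were not duplicates, since the chi-square per degree of freedom between their counts was at least 31.8. Exon lengths are from GENCODE M21. Floors of 3 counts lay between 0.0536 and 0.0808 CPM and cover counting error only, and every named gene was above them. Alternatives were no block, other filters, scalings and lengths, DESeq2 1.42.0, limma-voom (limma 3.58.1), ComBat-seq (sva 3.50.0) with limma, no fold threshold and each culture left out. Scaling to raw library size was planned for the levels per kb. For the calls and fold changes it was added after seeing the data, as were the ratio and share of Scn2b. The fit was also tested on simulated data, and the outcome is not given here.

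Named genes are the 9 members, called partner genes, listed markers and, for likeness, the 3 genes with the highest Pearson's r to each of the 3 most abundant alpha genes. Other partner genes were named after their values were seen. The members and the lists of partner and marker genes were chosen with earlier results of these data known. 1 nonpeptidergic marker gene of the planned list was left out after its values were seen, because it is withheld from the text, and the sums are of the other 4. Some genes of the partner list are counted but not reported individually here.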

Additional observations from a re-analysis of the deposited data

How the results depend on the processing

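The replicate block decided the calls. With no replicate block, edgeR's quasi-likelihood test called 0 genes (0 of the 9 sodium channel genes and 0 of the 24 partner genes) against 1591 with it, with 2089 genes at an unadjusted p-value under 0.05. With the replicate number as block or batch, the other tools called 1226 (DESeq2), 1569 (limma-voom) and 2127 genes (ComBat-seq and limma). Without the fold threshold 3505 genes, 2 of the 9 and 4 of the 24 passed. With a single culture left out, 896 to 1567 genes were called, fewest without replicate 1 of either group, and 1 of the 9 (Scn2b) and 1 of the 24 (Tmem233) in each case. Upper-quartile scaling moved the share of calls that were lower from 61.8% to 55.8%, pan-neuronal scaling to 73.2%, and ComBat-seq with limma to 52.4%. The difference of the mean TTX-resistant shares, taken without pairs, ran from -2.34 to 1.22 points with a culture left out, which unbalances the replicate numbers, so its turn of sign says nothing of the treatment. The pair differences were -0.62 to -0.50 points. The signs of the fold changes of Scn1a (-0.058 to 0.0022), Scn10a (-0.090 to 0.034, and 0.013 with upper-quartile scaling) and Scn11a (-0.0044 to 0.111) turned within these ranges, and the sizes of Scn2a (-0.322 to -0.0622), Scn8a (-0.279 to -0.146), Scn9a (0.0227 to 0.148) and Scn3b (0.00362 to 0.1398) moved by more than 1.5 times. Scn2b ran from -0.67 to -0.51 and Tmem233 from -0.56 to -0.52. The cause of these shifts was not tested.

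With 3 cultures a group, exact permutation tests cannot give a p-value under 0.1. Protein, current and channel location were not measured here, and RNA of glia and fibroblasts varied between cultures. Leaving out a culture also removes the contrast of its same-numbered partner.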
